A study of Mus musculus with 3 samples.

Results

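The 10 genes described here encode cytokines of the IL-6, IL-10 and IL-12 families together with the growth factor gene Csf2, and were chosen by name: Il6, Il10, Il12a, Il12b, Il23a, Il27, Ebi3, Lif, Osm and Csf2. All 10 were found, each at 1 gene identifier, among 55536 annotated genes, of which 22028 are protein-coding. RNA depleted of ribosomal RNA came from the nuclear fraction of macrophages, primary phagocytes that were derived in culture from bone marrow of C57BL/6J mice, which the labels also call nucleoplasmic. The cells had received Lipid A, which is the portion of lipopolysaccharide that the receptor Tlr4 senses, at 100 ng/ml for 15 min. The labels give 1 group of 3 biological replicates and record neither age nor sex. Untreated cells, later times and cytoplasmic RNA are not analysed here, so the values are levels at this time and not responses to Lipid A. The biosamples are separate but share 1 donor entry, and the differences among replicates may therefore reflect technical spread.

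Cytokines of the IL-6 family signal through receptors that contain the shared chain gp130, the product of Il6st. IL-10 restrains inflammatory gene expression in macrophages and acts through a different receptor. Members of the IL-12 family are pairs of subunits made from separate genes: Il12b with Il12a gives IL-12, Il12b with Il23a gives IL-23, Ebi3 with Il27 gives IL-27, and Ebi3 with Il12a gives IL-35. Such a cytokine forms only where both genes of the pair are expressed. In macrophages Il6 and Il12b are textbook late genes of the Tlr4 response, which need new protein synthesis and chromatin remodelling, and many cytokine mRNAs carry AU-rich elements that target them for decay.

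Depth was similar, with 18516063, 17345644 and 20947006 expected counts over annotated genes in replicates 1 to 3. An expected count is the number of fragments that a model assigns to a gene. RNA input was 500 ng for replicate 2 and 1 µg otherwise. All 7 macrophage markers, such as Csf1r and Adgre1, were measured, at mean levels from 32.3 to 1978 TPM, with summed levels from 5483 to 7259 CPM, counts scaled to a fixed library total. TPM is a level corrected for gene length. Markers of other cells were also measured, beside 76.2 to 187 CPM for the 10 cytokine genes together. T cell markers summed to between 40.1 and 102 CPM, nearly all of it Cd4 (736, 1762 and 1762 counts), with Cd3e at 0, and dendritic cell markers to between 5.20 and 10.5 CPM, with Zbtb46 at 105, 147 and 85 counts. Mast cell and basophil markers summed to at most 0.115 CPM with Tpsb2 at 0, and neutrophil markers to at most 0.859 with Ly6g at 0. Fibroblast markers summed to at most 1.73 CPM, with Pdgfra at 0, Col1a1 at 13, 21 and 7 counts and Col1a2 at 15, 1 and 2. Such a sum is of the size of the scarce cytokine genes, for example Il6 at a mean of 0.384 CPM and Il27 at 1.29 CPM. Endothelial markers lay between 29.0 and 40.0 CPM, mostly Kdr. The part of such cells in the levels below was not tested.

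The cytokine genes fell into a high set of 3 and a low set of 7. Osm, Il10 and Ebi3 were each at 8.67 TPM or more in every library, Il27 lay between 0.71 and 1.44 TPM, and the other 6 never passed 0.34 TPM. Of the 10 genes, 3 had a mean of at least 10 TPM, against 20.9% of all protein-coding genes, and 5 averaged at least 10 expected counts, against 54.3%. The level of 10 TPM depends on the table: in a second deposited quantification the means were 12.3 TPM for Osm, 7.08 for Il10 and 5.12 for Ebi3, so 1 of the 10 genes reached it, against 13.5% of protein-coding genes. These 3 genes were the highest of the 10 there too, and the next was Il23a at 1.34 TPM. In that table, transcripts shorter than 100 bases took 57.3%, 13.0% and 84.3% of all TPM in replicates 1 to 3, against 0% in the first; their part in the lower levels was not tested. Il12a and Csf2 did not pass 3 counts in any library, as was true of 39.1% of protein-coding genes. The median of the 10 mean levels was 0.255 TPM, beside 0.567 TPM over all protein-coding genes. Osm alone held 68.1 ± 7.33% of the counts of the 10 genes (SD, n = 3), Il10 16.8 ± 2.51% and Ebi3 12.2 ± 5.46%. In bulk RNA, expression in few cells and less RNA in each cell cannot be told apart.

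**Figure D1:**
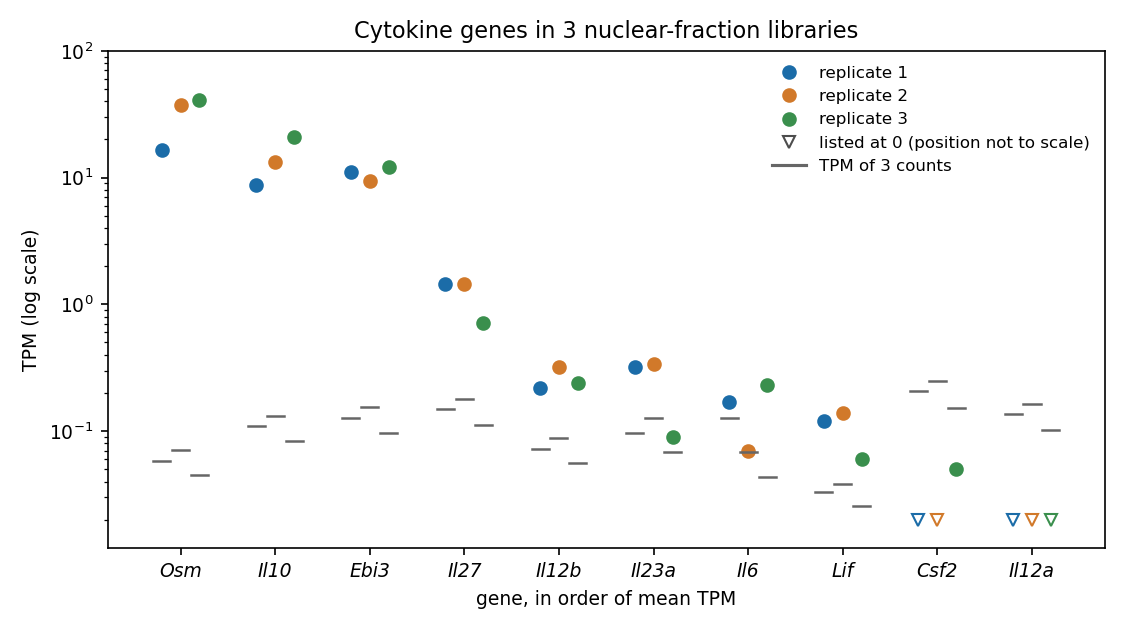
TPM of each cytokine gene (log axis) in the 3 libraries, with genes in the order of their mean. Short grey bars mark the TPM that 3 counts would give, the number that a count of 0 allows, and open triangles mark genes listed at 0. Osm, Il10 and Ebi3 lie between 8.67 and 40.83 TPM, while Csf2 and Il12a lie below their grey bars.

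Among the IL-6 family genes, Osm was abundant and the others were scarce. Osm (ENSMUSG00000058755.3, GRCm38 chromosome 11, 4236420 to 4241026, plus strand) encodes oncostatin M, a cytokine that macrophages send to stromal and liver cells. It had 849, 1587 and 2720 expected counts in replicates 1 to 3, which correspond to 16.51, 37.43 and 40.83 TPM and a mean of 31.6 ± 13.2 TPM (SD, n = 3). Replicate 1 was lowest; replicates 2 and 3 were close in TPM, though not in the CPM given further on. By mean TPM, Osm ranked at place 1403 among the protein-coding genes, above 93.6% of them. The early cytokine gene Tnf stood at 363, 63.1 and 177 TPM in the same libraries, so the library with the least Osm had the most Tnf.

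Lif (ENSMUSG00000034394.14, chromosome 11, 4257557 to 4272514, plus strand) encodes leukaemia inhibitory factor and starts 16531 bases beyond the end of Osm on the same strand. Its expected counts were 11, 11 and 7, giving 0.12, 0.14 and 0.06 TPM. Il6 itself (ENSMUSG00000025746.11, chromosome 5, 30013114 to 30019981, plus strand), the founder of the family and an inducer of the acute phase response, had 4, 3 and 16 counts, or 0.17, 0.07 and 0.23 TPM. Replicate 3 held most of the Il6 counts. Its exact 95% Poisson interval, 0.437 to 1.24 CPM, still overlapped that of replicate 1, 0.0589 to 0.553 CPM, and that of replicate 2, 0.0357 to 0.505 CPM. These intervals cover counting error only, since reads from PCR are not independent molecules.

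Il10 (ENSMUSG00000016529.5, chromosome 1, 131019845 to 131024974, plus strand), the anti-inflammatory cytokine of the set, had 238, 302 and 752 expected counts. Its level was 8.67, 13.31 and 20.77 TPM, with a mean of 14.2 ± 6.10 TPM (SD, n = 3), above 84.7% of protein-coding genes. As for Osm, replicate 1 was lowest and replicate 3 highest. By the distance of log2(TPM + 0.1) over the 3 libraries, the protein-coding genes most like Osm were Dtx3 (distance 0.210), Mink1 (0.276) and Sgk1 (0.333), and those most like Il10 were Abtb1 (0.279), Kdm6b (0.342) and Tnfsf13 (0.474). With 3 libraries such likeness rests mainly on a similar level.

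In the IL-12 family, 1 subunit gene was abundant and its partners were not. Ebi3 (ENSMUSG00000003206.7, chromosome 17, 55952640 to 55957022, plus strand), the receptor-like subunit of IL-27 and IL-35, had 261.17, 181 and 380.42 expected counts, or 11.12, 9.31 and 12.2 TPM, a mean of 10.9 ± 1.46 TPM (SD, n = 3). It varied less between libraries than Osm or Il10. Il27 (ENSMUSG00000044701.5, chromosome 7, 126589010 to 126594941, minus strand), which encodes the helical partner of Ebi3, had 29, 24 and 19 counts and 1.44, 1.44 and 0.71 TPM. Replicate 3 was thus highest for Ebi3 and lowest for Il27, and Ebi3 exceeded Il27 by 7.72-, 6.47- and 17.2-fold in TPM in replicates 1 to 3. The log2 difference, on the log2(TPM + 0.1) scale used for all differences here, was 3.13 ± 0.70 (SD, n = 3).

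Il12a (ENSMUSG00000027776.12, chromosome 3, 68690644 to 68698547, plus strand), which encodes the helical subunit of IL-12 and IL-35, had 0 counts in all 3 libraries. A count of 0 allows up to 3 counts, or 0.136, 0.164 and 0.102 TPM. Ebi3 was at 81.9, 56.7 and 119 times that floor, taken per library. These multiples are not a lower limit under every estimate. The log2 difference of Ebi3 minus Il12a was 6.77, but 5.51 in the second quantification and 4.74 with the authors' posterior mean TPM. Il12b (ENSMUSG00000004296.14, chromosome 11, 44400063 to 44414033, plus strand), the subunit that IL-12 and IL-23 share, had 9, 11 and 13 counts and 0.22, 0.32 and 0.24 TPM. With so few counts no bound on its fold over Il12a is given, and with the authors' posterior mean TPM the log2 difference was -0.020. Il23a (ENSMUSG00000025383.2, chromosome 10, 128296139 to 128298752, minus strand), which encodes the subunit particular to IL-23, had 10, 8 and 4 counts and 0.32, 0.34 and 0.09 TPM. Il12b and Il23a overlapped: Il23a was the higher in replicates 1 and 2 and Il12b in replicate 3, with a log2 difference of 0.13 ± 0.64 (SD, n = 3). No pair of IL-12 family subunits was therefore above 10 TPM on both sides, and the pair with the highest minor partner was Ebi3 and Il27.

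Csf2 (ENSMUSG00000018916.5, chromosome 11, 54247271 to 54249667, minus strand), which encodes the growth factor GM-CSF, had no counts in replicates 1 and 2 and 1 count in replicate 3. For Csf2, 3 counts correspond to 0.207, 0.249 and 0.152 TPM in replicates 1 to 3. In replicate 3 this is not an upper limit, since the exact 95% Poisson interval of 1 count reaches 5.57 counts. No fold against Il12a can therefore be given.

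The order by mean TPM was Osm, Il10, Ebi3, Il27, Il12b, Il23a, Il6, Lif, Csf2 and Il12a. Osm was above Il10 within each library, by 1.13 ± 0.31 on the log2 scale (SD, n = 3), although the ranges of both genes over libraries overlapped. Il10 and Ebi3 did not differ beyond their spread, with 0.31 ± 0.59 and Ebi3 the higher in replicate 1. Below Ebi3 the ranges separated at the step to Il27, and again from Il27 to Il12b, at 1.80 ± 0.51. From Il12b down to Lif, neighbours overlapped: Il23a minus Il6 was 0.40 ± 1.10 and Il6 minus Lif 0.28 ± 0.77. For 11 differences, an exact permutation test that flips their signs (two-sided) was run, and those between Osm and Il10, Ebi3 and Il27, Il27 and Il12b, Lif and Csf2, Il12b and Il12a, and Ebi3 and Il12a gave an exact p = 0.25 (n = 3; adjusted p = 0.458), the smallest value that 3 libraries allow. The other differences gave an exact p of 0.5 or more, and none could pass a threshold of 0.05. Lif was at 0.581, 0.563 and 0.395 times the TPM that 3 counts of Csf2 would give in replicates 1 to 3. The counts therefore do not show which of Lif and Csf2 is higher.

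Between libraries, Osm, Il10 and Ebi3 differed by more than counting error, while Il27 and Il12b did not. Osm stood at 45.9, 91.5 and 130 CPM in replicates 1 to 3, a 2.83-fold range, with intervals of 42.8 to 49.0 in the lowest library and 125 to 135 in the highest. Il10 stood at 12.9, 17.4 and 35.9 CPM, a 2.79-fold range, and Ebi3 at 14.1, 10.4 and 18.2 CPM, a 1.74-fold range. The intervals of the highest and lowest library were separated for these 3 of the 5 genes that averaged at least 10 counts. The same held for 73.2% of protein-coding genes past that filter, so separation as such is near the background. The ranges of Osm and Il10 exceeded those of 95.1% and 94.9% of the 9007 protein-coding genes averaging at least 100 counts, whose median range was 1.42-fold, and that of Ebi3 exceeded 76.4%. Osm, Il10 and Ebi3 were highest in replicate 3, which was the highest library for 20.6% of protein-coding genes that averaged at least 10 counts; replicate 1 was highest for 48% and replicate 2 for 31.4%. Il27 went the other way, with 1.57, 1.38 and 0.907 CPM and overlapping intervals. The smaller RNA input of replicate 2 did not go with the lowest value of Osm or Il10, which replicate 1 had, but did so for Ebi3; its part was not tested.

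**Figure D2:**
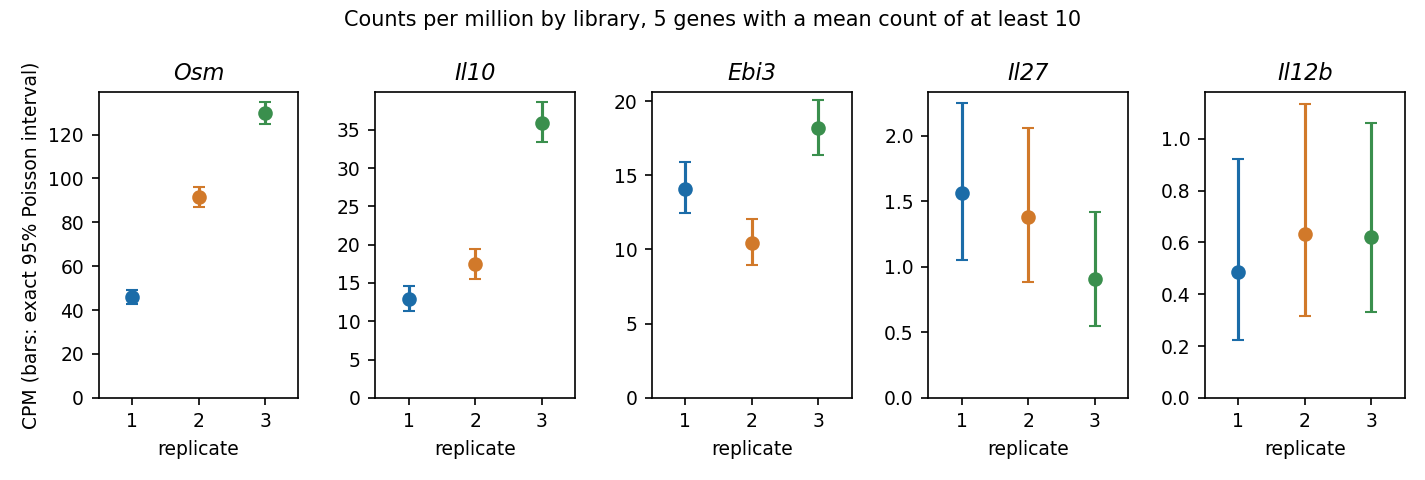
CPM of the 5 genes that averaged at least 10 counts in replicates 1 to 3; bars are exact 95% Poisson intervals and each vertical axis starts at 0. The intervals of the lowest and highest library are apart for Osm, Il10 and Ebi3 and overlap for Il27 and Il12b.

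AU-rich sequences in the 3′ untranslated regions (UTRs) were compared because the decay factor Zfp36, which binds them, was at 348 ± 35.1 TPM (SD, n = 3). The pentamer ATTTA was searched on the transcript strand of the annotated UTR of the coding transcript with most counts (for Il12a, which had none, the longest), and in the longest UTR of every other gene. All 10 genes held more copies than the median UTR within 20% of the same length, and 8 of them more than 95% of such UTRs; the others were Ebi3, with 1 copy in 245 bases, and Lif, with 7 in 3180 bases. Csf2 had 9 copies in 317 bases, Il27 5 in 285, Il10 6 in 706, Osm 6 in 1017 and Il6 10 in 1668. The longer form TTATTTATT, which contains the pentamer, occurred in Il12a, Il23a, Il27, Lif and Csf2, and in 7.66% of all 21021 UTRs. None of the 3 highest genes, the same 3 in both tables, held it, and 5 of the other 7 did. Over all genes the split was not of this kind: 24.0% of 1610 genes with TTATTTATT and 21.6% of 19411 without it had a mean of at least 10 TPM. The UTR windows with this motif are printed because they mark the 5 low genes that carry it. Each is 30 bases from the GENCODE M21 transcript, 5′ to 3′, with GRCm38 coordinates, the gene's strand and the motif in capitals.
Il12a, chr3:68698436-68698465, plus strand: ctatttatatTTATTTATTttctatttatt
Il23a, chr10:128296183-128296212, minus strand: tagatgatggTTATTTATTctatttataag
Il27, chr7:126589077-126589106, minus strand: tcttggatatTTATTTATTtttaagaaatg
Il27, chr7:126589055-126589084, minus strand: aagaaatggtTTATTTATTgtttcactctt
Lif, chr11:4272039-4272068, plus strand: aaaggggcctTTATTTATTatttaaaactt
Lif, chr11:4272402-4272431, plus strand: cagattatttTTATTTATTcaatgtcatat
Csf2, chr11:54247322-54247351, minus strand: atatTTATTTATTTATTTATTTATTtttgc
The Csf2 window holds 4 overlapping copies, and the windows of Il27 lie where its last exon overlaps Apobr on the other strand. A match is a description of the letters, and decay was not measured.

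**Figure D3:**
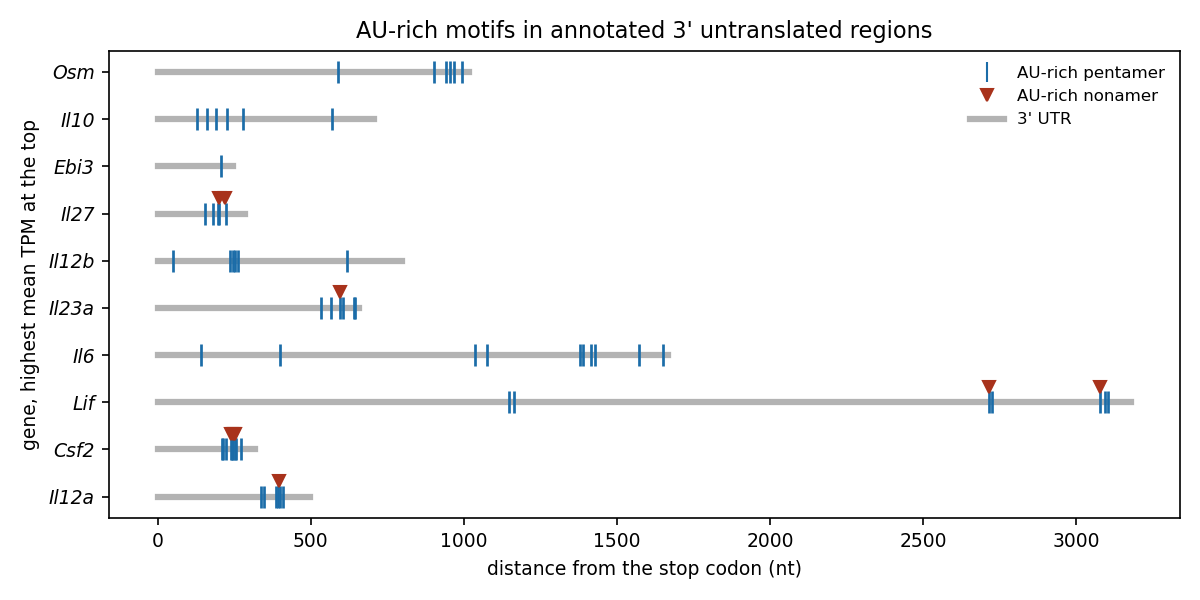
Positions of the AU-rich pentamer (blue ticks) and nonamer (red triangles) along the annotated 3′ UTR of each gene, in nucleotides from the stop codon, with the gene of highest mean TPM at the top. Nonamers are seen in Il27, Il23a, Lif, Csf2 and Il12a and in none of the top 3 genes.

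Promoter windows from RefSeq (GRCm38.p6, 250 bases before to 50 after the start) were available for 6 of the genes, namely Csf2, Ebi3, Il6, Il12a, Il12b and Lif; Il10, Il23a, Il27 and Osm had no entry. They were searched on both strands for GGGA and TTTCC with any base between them (NF-κB), TGANTCA (AP-1), TGACGTCA (CRE), TTGCNNAA (C/EBP) and TATAAA. These letters occurred in 0.411%, 7.81%, 1.79%, 10.8% and 13.6% of 32851 windows. Ebi3 and Il6 are printed as the abundant gene with a window and the scarce gene with the most matches, with matches in capitals.
Ebi3, chr17:55952373-55952672, plus strand: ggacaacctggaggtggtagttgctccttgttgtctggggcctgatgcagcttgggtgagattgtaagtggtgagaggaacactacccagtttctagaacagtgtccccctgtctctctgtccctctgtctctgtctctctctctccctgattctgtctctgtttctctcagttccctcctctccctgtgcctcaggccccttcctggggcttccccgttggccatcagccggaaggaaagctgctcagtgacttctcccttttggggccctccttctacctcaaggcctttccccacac
Il6, chr5:30012864-30013163, plus strand: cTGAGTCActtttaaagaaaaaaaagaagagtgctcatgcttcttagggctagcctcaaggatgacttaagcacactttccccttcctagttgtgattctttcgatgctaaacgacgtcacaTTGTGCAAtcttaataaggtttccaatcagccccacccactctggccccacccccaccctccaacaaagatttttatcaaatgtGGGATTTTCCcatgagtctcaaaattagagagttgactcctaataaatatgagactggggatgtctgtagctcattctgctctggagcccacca
The Il6 window, of a gene with 3 to 16 counts, held an AP-1 match that starts at position -249, a C/EBP match at -128 and an NF-κB match at -44, counted from the start site; they do not overlap. The Ebi3 window, of a gene with 181 to 380.42 counts, held none of the searched letters. Looser forms of these motifs were not searched, so the lack of a match does not mean that no site is present. Lif had an AP-1 match at -228 and Csf2 a C/EBP match at -145, while Il12b and both windows of Il12a had no match. The Csf2 window, chr11:54249850-54250149 on the minus strand, lies wholly upstream of the annotated gene, which starts at 54249667. Its position thus counts from a different start site, and the bases next to the annotated Csf2 start were not searched.

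At the level of transcripts, the main coding form held nearly all of Osm: Osm-201 took 99.7% of its expected counts in each library. The annotation gives Il10, Ebi3, Il27 and Csf2 a single transcript. Il6 counts went mainly to a coding form of 2343 bases, with 2.74, 3 and 16 counts, and none to the form of 1141 bases. Of Il23a, the form that retains an intron, Il23a-202, took 3.36, 0 and 2.45 counts of 10, 8 and 4. The second quantification, derived from the read files and not from alignments per the deposited notes, gave more counts to most of these genes. It assigned Il23a 87.7, 240 and 62.5 counts, 17.8 times as many in sum, and 91.3%, 96.2% and 98.2% of them lay on the form with the retained intron. This ratio exceeded those of 94.1% of the 1787 protein-coding genes averaging from 5 to under 30 counts, whose median was 2.29. Lif had 60.1, 64.3 and 49.6 counts there, 6.00 times as many, and Il27 94, 84.1 and 68.1, 3.42 times as many. These ratios exceeded those of 79.7% and 64.7% of the same 1787 genes. The ratios of Il6, 1.52, and Il12b, 2.03, exceeded those of only 25.1% and 44.3% of these genes. For Osm, Ebi3 and Il10 the count ratio was 1.37, 1.61 and 1.86. The median was 1.48 for protein-coding genes that averaged at least 10 counts. Csf2 had 1.07, 9.35 and 5.48 counts there, and Il12a stayed at 0 in both tables. The RNA of Il23a was thus near the floor in 1 quantification and well above it in the other, and the cause was not tested.

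**Figure D4:**
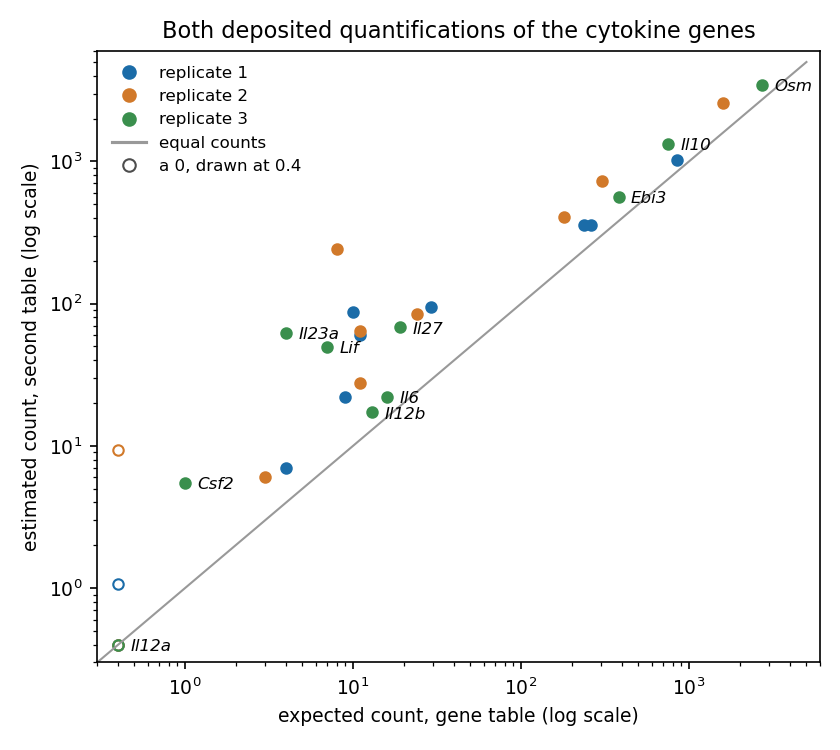
Expected counts of the gene tables against estimated counts of the second tables for each gene and library, both on log axes, with the line of equal counts. Il23a, Lif and the single Csf2 point with counts in both tables lie well above the line, and Il12a has 0 in both.

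Genes that overlap or adjoin the cytokine genes bear on these values, because whether counting used the strand is not given in the sources used here. Ebi3 shares 270 of its 1154 exonic bases with the antisense gene Gm16712, which had 294.63, 276.83 and 382.95 counts, so the level of Ebi3 is uncertain. Il27 shares 103 of 1021 exonic bases with Apobr, a lipoprotein receptor gene with 3199, 2201 and 3240 counts, far above those of Il27, so the level of Il27 is uncertain too. Csf2 overlaps the antisense gene Gm12223, which had 0 counts. Il23a lies 3290 bases from Stat2 (69.5 TPM) and 4583 bases from Pan2 (6.27 TPM) with no overlap. Neighbours of the same families were not detected at this depth: Il19, Il20 and Il24 of the Il10 cluster and Il3 beside Csf2 were listed at 0 throughout, where 3 counts per library remain possible.

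Most genes for receptor chains were measured. Of 13 receptor chain genes, 10 averaged at least 10 counts, against 54.3% of protein-coding genes. The median of all 13 was 17.9 TPM, beside 0.567 TPM over all protein-coding genes. Both chains of the IL-10 receptor were abundant, with Il10ra at 46.9 ± 13.7 TPM and Il10rb at 77.5 ± 9.40 TPM (SD, n = 3), alongside the Il10 gene itself. Il6ra and Il6st were at 17.9 ± 6.76 and 37.6 ± 12.7 TPM, where Il6 was near the floor. Csf2ra and Csf2rb were at 77.6 ± 9.48 and 78.5 ± 35.7 TPM, where Csf2 had a single count; Csf2rb and its near-identical copy Csf2rb2 can share reads, so each is uncertain. Osm showed the reverse: Osmr, a chain of its receptor, had 3, 3 and 1 counts. Il23r had 1, 2 and 0 counts and Il27ra 7, 3 and 11, while Lifr was at 3.10 ± 1.21 TPM, Il12rb1 at 1.45 ± 0.301 and Il12rb2 at 3.57 ± 0.835 TPM. All 9 genes for Jak kinases, Stat factors and the feedback inhibitor Socs3 passed a mean count of 10, against 54.3% of protein-coding genes. Stat3, the main factor below IL-6 and IL-10, was at 20.3 ± 3.30 TPM. Stat4, the main factor below IL-12, was lowest at 0.860 ± 0.308 TPM.

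**Figure D5:**
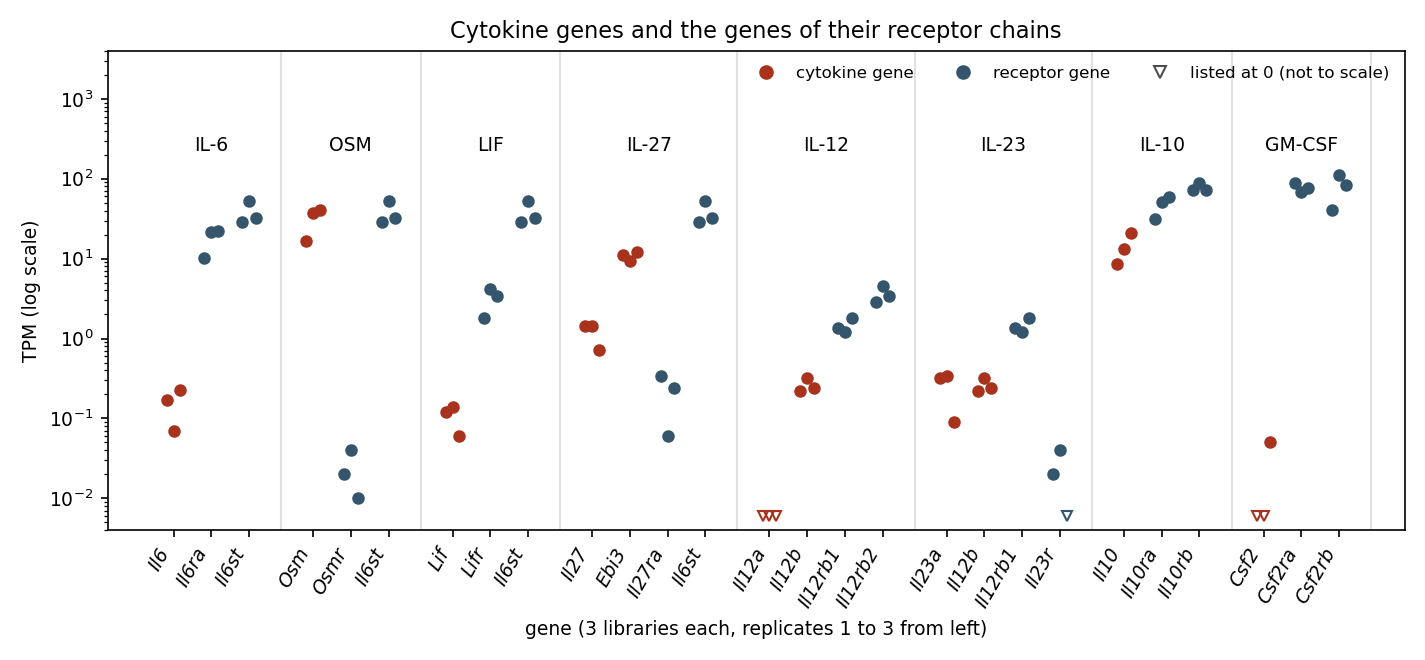
TPM (log axis) of each cytokine gene (red) and of the genes for its receptor chains (blue), 3 libraries each, grouped by cytokine, with open triangles for genes listed at 0. Il10 is high together with Il10ra and Il10rb, Osm is high where Osmr is below 0.1 TPM, and Csf2 and Il6 are low where their receptor chains are above 10 TPM.

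Of 14 other ligands of the same families or of the Csf2 cluster, 3 averaged at least 10 counts, against 54.3% of protein-coding genes. At or below 3 counts throughout were 10 of the 14, against 39.1% of protein-coding genes. Csf1, the growth factor that maintains macrophages, was the highest at 17.3 ± 9.04 TPM (SD, n = 3), with 531, 1589 and 1960 counts, lowest in replicate 1 as Osm and Il10 were. The others were Cntf at 1.5 ± 0.380 and Clcf1 at 0.240 ± 0.165 TPM. All 14 transcription factors listed as acting at these cytokine genes were past a mean count of 10, against 54.3% of protein-coding genes. They ran from Cebpd at 2.11 ± 0.610 TPM to Irf1 at 133 ± 85.5 TPM. Maf, a factor known for its action on Il10, was at 101 ± 28.7 TPM, Rel at 11.8 ± 3.28 and Nfkbiz, a co-factor of Il6 and Il12b, at 49.0 ± 26.4 TPM. The 4 decay and stabilising factors lay between 12.04 TPM for Rc3h1 and 348 TPM for Zfp36, with Zc3h12a, a nuclease that cuts Il6 mRNA, at 17.8 ± 4.26 TPM and Arid5a, which stabilises it, at 16.3 ± 4.84 TPM.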

How the data were processed

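Libraries were made by the submitters from ribosomal RNA-depleted RNA of the nuclear fraction, 1 per biological replicate, with a size range of 250 to 400 nucleotides per the labels. Gene and transcript tables, per the file headers, hold the authors' expected counts, TPM and FPKM, and the percent of a gene's TPM in each transcript, under headings of the RSEM kind. The bounds of the authors' credibility interval of TPM are handled here as a deposited score and were not compared. Second transcript tables, under headings of the kallisto kind, hold estimated counts and TPM as deposited. The deposited notes name assembly mm10 and annotation M21; the gene tables derive from transcriptome alignments and the second tables from read files. The aligner and the versions of programs: not given in the sources used here.

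Symbols came from the second tables for 55450 genes and from the annotation for 86. Rows naming no gene (26345, with 1.24%, 0.372% and 0.0641% of expected counts in replicates 1 to 3) stayed out of library sizes. CPM used annotated totals. A count of 0 allows 3 counts, or 0.162, 0.173 and 0.143 CPM. Poisson intervals (95%) used rounded expected counts, tested on simulated data. Differences were taken on log2(TPM + 0.1), with an exact sign-flip permutation test and Benjamini-Hochberg adjustment over 11 differences. TPM depends on all other RNAs of a library, so libraries were compared on CPM. Scaling alternatives used edgeR 4.0.16 TMM (factors 1.07, 1.02 and 0.921) and DESeq2 1.42.0 size factors. Python 3.11.15 and scipy 1.17.1 were used. All 10 members are named, as are the fixed lists of receptors, signal transducers, ligands, factors and markers, except 1 marker list that is not reported here. Members and lists were chosen with earlier results of these data known.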

Additional observations from a re-analysis of the deposited data

How the results depend on the processing

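The second tables raised the number of genes averaging at least 10 counts from 5 to 8, lowered those with at most 3 counts in every library from 2 to 1 and moved the median level to 0.760 TPM. They moved the levels of 8 of the 10 genes by more than 1 SD, and left 1 gene in place of 3 at 10 TPM or more, a count added after seeing the data. A minimum of 5 counts also gave 8 genes. The median was 10.9 TPM over genes averaging at least 10 counts, 0.337 in FPKM and 0.352 with the posterior mean TPM, which lists Il12a at 0.30, 0.36 and 0.23 TPM despite its 0 counts. Leaving out a replicate gave 5 to 6 genes averaging at least 10 counts and a median from 0.218 to 0.3 TPM. Of 70 recomputed differences between genes, 63 kept their direction. Those of Osm, Il10, Ebi3 and Il27 with the next gene in the order did so under each alternative run. Where a difference had the same sign in all 3 libraries, a changed pseudocount or a replicate left out could not reverse it. Part of the 63 was therefore fixed in advance. Reversals were among scarce genes. The difference of Csf2 and Il12a was not recomputed, nor was that of Il27 and Il23a. In the second tables the mean of Il23a, 1.34 TPM, was above that of Il27, 1.28 TPM. Il12b minus Il23a became -1.83 in the second tables, and leaving out a replicate gave -0.23 (without replicate 3) to 0.39. Il23a minus Il6 became -0.31 with posterior means, and -0.080 (without replicate 2) to 1.00 with a replicate left out. Il6 minus Lif became -0.84 in the second tables, and -0.10 (without replicate 3) to 0.67 with a replicate left out. Il12b minus Il12a became -0.020 with posterior means. The cause of these reversals was not tested. The number of genes with separated intervals was 3 under each scaling and 4 in the second tables. No paired contrast between conditions was possible because the labels give a single group. Depth limits the scarce genes: the intervals of Il6 overlapped between libraries although its counts ran from 3 to 16.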
